A study of Mus musculus with 16 samples.

Results

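Livers of 4 female mice heterozygous for a deletion of Ncoa5 (genotype Ncoa5+/-Tip30+/+, called Ncoa5+/- here) were compared with livers of 4 wild-type females (Ncoa5+/+Tip30+/+), all aged 5 months. These are 8 of the 16 libraries of the series, 1 library per mouse. The other 8 come from Ncoa5+/-Tip30+/- and Ncoa5+/+Tip30+/- females of the same age, 4 of each, and serve below as a second comparison of the same Ncoa5 deletion in mice that share no library with the first. The labels name no promoter or cell type that would limit the deletion, and neither the exons it removes nor the strain of the mice is stated in the labels. Each library was made from polyadenylated RNA of a piece of frozen liver, which the labels call mainly hepatocyte. Of 30199 genes in the deposited table, 15207 averaged at least 10 normalized counts (reads per gene divided by the size factor of the library) over the 8 libraries and were tested. Just inside that limit lay Cryba2 with a mean of 10.01 normalized counts and just outside lay Gm40457 with 9.997.

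Ncoa5 encodes a coregulator that binds nuclear receptors such as the oestrogen receptor and adjusts the transcription of their targets. Much of what follows concerns genes known as targets of p53, the transcription factor encoded by Trp53. In unstressed cells the ubiquitin ligase Mdm2 keeps p53 protein low, and DNA damage or other stress lets it accumulate without a change in its mRNA. It then binds DNA elements made of a pair of 10-base repeats and raises genes that arrest the cell cycle, trigger apoptosis, repair DNA and adjust metabolism, along with Mdm2 itself as negative feedback. In liver the pathway is known from toxic injury, regeneration and hepatocellular carcinoma.

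Between 26262744 and 28895680 reads were assigned to genes per Ncoa5+/- library, and between 26058724 and 37939978 per wild-type library. Mitochondrially encoded genes took 3.42% to 5.59% of reads in Ncoa5+/- livers and 5.04% to 5.65% in wild-type livers. Zhx2, a repressor of fetal liver genes, stood at 13.5, 238, 207 and 8.77 normalized counts in Ncoa5+/- mice 1 to 4, against 19.4, 26.3, 438 and 204 in wild-type mice 1 to 4. Thus 4 libraries, Ncoa5+/- 1 and 4 and wild type 1 and 2, were low in Zhx2, which the labels do not mention, and both genotypes hold 2 of them. Without these 4 libraries, a fit of 2 mice against 2, 22 of the 81 risers described below passed and 59 did not. All 81 stayed higher, which was fixed in advance because no riser overlaps between the genotypes. The groups of genes below are given with those that passed. Ncoa5 itself did not differ beyond the spread between mice, at 339, 411, 364 and 408 normalized counts in Ncoa5+/- mice 1 to 4, against 409, 479.5, 434 and 380.2 in wild-type mice 1 to 4 (log2 difference -0.16 ± 0.10, two-sided exact permutation p = 0.171 over 70 arrangements). The Ncoa5 reads thus do not check the genotype, and the groups rest on the labels. Htatip2, the gene of Tip30, stood at 2467 ± 358 in Ncoa5+/- and 2058 ± 179 in wild-type livers (SD, n = 4 each, exact permutation p = 0.114).

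With 1 model over the 16 libraries (limma on log2 of the normalized count plus 1), 85 genes differed between Ncoa5+/- and wild-type livers at an adjusted p below 0.05, or 0.559% of those tested. Of these, 81 (0.533%) were higher and 4 (0.0263%) were lower in Ncoa5+/- livers. The rises were large: 64 of the 81 exceeded 2-fold, 28 exceeded 4-fold and 16 exceeded 8-fold. Over all genes tested the median log2 difference was -0.01. An unadjusted p below 0.05 was reached by 1557 of them (10.2%), the share to set beside such counts for the lists below. The groups did not overlap for any of the 85 genes, while 5.67% of all genes tested did not overlap, 3.23% higher and 2.44% lower in Ncoa5+/- livers. Among the risers, 22 belong to lists of p53 targets, 10 to lists of immune genes or T cell markers (Tap1 to both) and 50 to neither. Ncoa5+/- mouse 1 was the highest Ncoa5+/- mouse for 47 of the 81, and mouse 4, 2 and 3 for 16, 12 and 6. Without Ncoa5+/- mouse 1, wild-type mouse 3 or wild-type mouse 4 the number of risers was 44, 44 and 50, and without the 4 libraries low in Zhx2 it was 27. In a fit of these 2 groups alone, which takes no spread from the other 8 libraries, it was 55, beside 1 that fell. By DESeq2 on the recovered reads it was 206, beside 48 that fell. Of the 81, 36 passed in all 8 fits that each leave out 1 mouse.

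**Figure D1:**
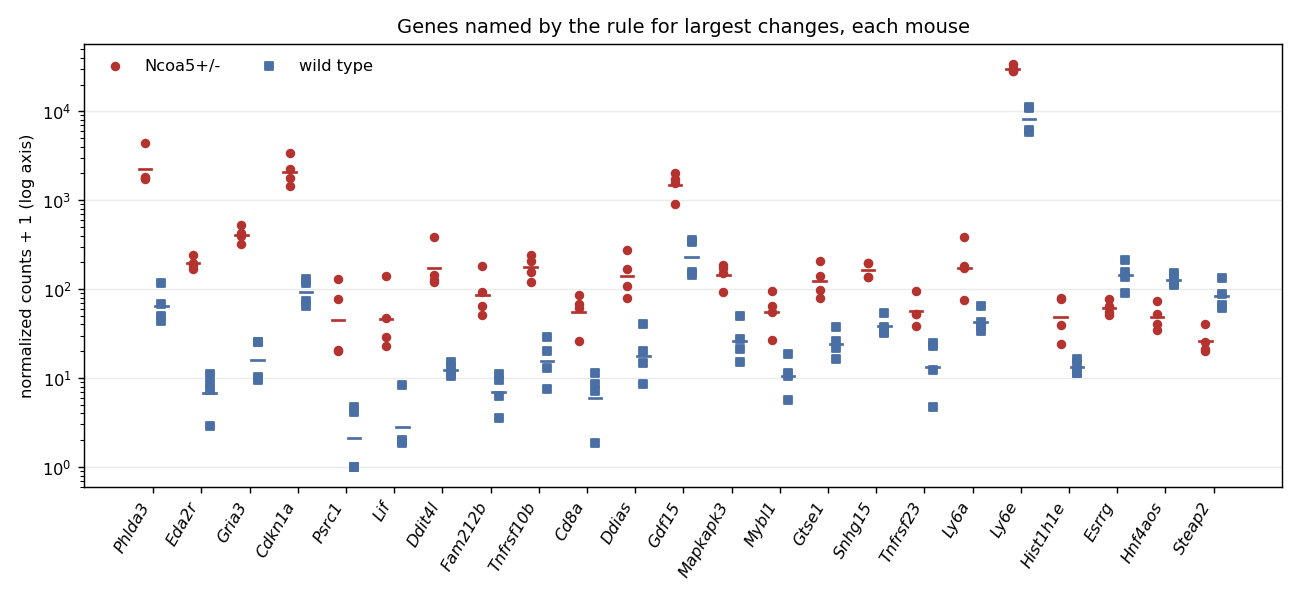
Normalized counts plus 1 on a log axis for the 20 largest rises and the 3 falls among called genes that averaged 50 or more in the genotype where they are higher and are not predicted genes, ordered by log2 difference, with Ncoa5+/- livers (red circles) left of wild-type livers (blue squares), 1 point per mouse and n = 4 each. Bars mark the mean on the log scale. That the 2 genotypes do not overlap was a condition for choosing these 23 genes.

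Among the genes of p53 arrest and feedback, 11 of the 23 tested rose and 0 fell, with a median log2 difference of 1.08 over the list. Cdkn1a (ENSMUSG00000023067, GRCm38 chr17:29090976-29100727), which encodes the cyclin-dependent kinase inhibitor p21, stood at 3382, 1434, 1785 and 2244 normalized counts in Ncoa5+/- mice 1 to 4, against 117, 130.4, 62.7 and 73.1 in wild-type mice 1 to 4. The lowest Ncoa5+/- liver was thus far above the highest wild-type liver, a rise of 22.7-fold (log2 4.51 ± 0.43, adjusted p = 0.000184). Phlda3 (ENSMUSG00000041801, chr1:135766119-135769136), a p53 target that keeps the kinase Akt from the membrane, showed the largest rise of the named genes. It held 4371, 1756, 1819.8 and 1744 normalized counts in Ncoa5+/- mice 1 to 4, against 67.5, 115, 48.7 and 43 in wild-type mice 1 to 4. That is a 34.5-fold rise (log2 5.11 ± 0.47, adjusted p = 0.000136), with mouse 1 far above the other Ncoa5+/- mice.

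Ccng1 (chr11:40748552-40755311), which encodes cyclin G1, a partner of Mdm2, stood at 3773, 1968, 2570.4 and 2404 normalized counts in Ncoa5+/- mice 1 to 4, against 861, 795, 609 and 818 in wild-type mice 1 to 4 (3.40-fold, adjusted p = 0.000211). Mdm2 itself (chr10:117688875-117710758) stood at 1643, 968, 1133 and 1124 in Ncoa5+/- mice 1 to 4, against 494, 472, 638 and 550.5 in wild-type mice 1 to 4 (2.23-fold, adjusted p = 0.00397). For both genes the genotypes were clearly apart and mouse 1 was again highest. Gtse1 (chr15:85859745-85876573), a microtubule-associated protein that restrains p53 in G2, averaged 130.3 ± 57.4 normalized counts in Ncoa5+/- and 24.5 ± 9.11 in wild-type livers (SD, n = 4 each), a 5.02-fold rise (adjusted p = 0.00268). Plk2, a polo-like kinase of the damage response, rose 3.60-fold (log2 1.85 ± 0.28, adjusted p = 0.00342). Btg2, an antiproliferative cofactor of mRNA decay, rose 3.01-fold, and Trp53inp1, a cofactor that promotes p53 activity, 2.87-fold (adjusted p = 0.0142 and 0.00331). Zmat3, an RNA-binding zinc finger protein, and Sesn2, a stress protein that restrains mTORC1, rose 2.42-fold and 2.27-fold (adjusted p = 0.00291 and 0.0395). Psrc1, a spindle protein, was at 75.5, 19.3, 19.8 and 129.5 normalized counts in Ncoa5+/- mice 1 to 4, against 0, 3.15, 3.74 and 0 in wild-type mice 1 to 4. Its 21.5-fold rise (log2 4.43 ± 0.81, adjusted p = 0.0146) therefore sets mice that range widely against a wild-type level of a few reads or none. Without the libraries low in Zhx2, Phlda3, Cdkn1a, Gtse1 and Ccng1 passed and the other 7 did not, among them Mdm2 (log2 0.82, adjusted p = 0.213), Plk2 (1.82, adjusted p = 0.113), Trp53inp1 (1.11, adjusted p = 0.145), Sesn2 (0.64, adjusted p = 0.478) and Psrc1 (3.24, adjusted p = 0.253). Sesn2 and Psrc1 also lost the call in 6 and 4 of the 8 fits that leave out a mouse. The 12 list members that did not pass had log2 differences from -0.49 to 1.08.

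The promoters of 6 risers are shown as examples of the 14 whose window holds the p53 consensus decamer, the 10-base repeat that p53 binds as a pair. All those shown but Exoc4 belong to the p53 lists, while 6 of the 14 belong to none. Each sequence runs from 250 bases before to 50 bases after the RefSeq start of the gene in GRCm38.p6, read 5′ to 3′ on the strand of the gene, and capitals mark the decamer. Cdkn1a lies at chr17:29090729-29091028, Ddit4l at chr3:137623422-137623721, Gtse1 at chr15:85859696-85859995 and Exoc4 at chr6:33248878-33249177 on the plus strand, and Mdm2 at chr10:117710709-117711008 and Ccng1 at chr11:40755237-40755536 on the minus strand.
Cdkn1a: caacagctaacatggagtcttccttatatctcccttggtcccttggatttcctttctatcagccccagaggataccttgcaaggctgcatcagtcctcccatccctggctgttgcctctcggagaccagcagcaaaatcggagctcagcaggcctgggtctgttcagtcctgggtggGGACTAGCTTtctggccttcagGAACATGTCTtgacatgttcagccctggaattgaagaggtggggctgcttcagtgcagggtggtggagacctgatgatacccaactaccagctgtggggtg
Ddit4l: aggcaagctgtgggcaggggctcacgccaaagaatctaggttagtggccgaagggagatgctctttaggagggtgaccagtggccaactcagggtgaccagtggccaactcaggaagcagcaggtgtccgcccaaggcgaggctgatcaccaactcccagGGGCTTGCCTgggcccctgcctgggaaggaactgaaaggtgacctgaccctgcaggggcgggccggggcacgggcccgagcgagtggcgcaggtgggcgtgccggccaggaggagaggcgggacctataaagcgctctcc
Gtse1: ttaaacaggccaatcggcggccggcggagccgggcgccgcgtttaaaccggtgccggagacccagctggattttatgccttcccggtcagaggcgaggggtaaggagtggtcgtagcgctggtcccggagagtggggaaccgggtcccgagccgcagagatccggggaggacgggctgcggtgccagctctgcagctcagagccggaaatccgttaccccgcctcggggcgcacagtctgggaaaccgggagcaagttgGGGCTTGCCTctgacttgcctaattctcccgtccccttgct
Ccng1: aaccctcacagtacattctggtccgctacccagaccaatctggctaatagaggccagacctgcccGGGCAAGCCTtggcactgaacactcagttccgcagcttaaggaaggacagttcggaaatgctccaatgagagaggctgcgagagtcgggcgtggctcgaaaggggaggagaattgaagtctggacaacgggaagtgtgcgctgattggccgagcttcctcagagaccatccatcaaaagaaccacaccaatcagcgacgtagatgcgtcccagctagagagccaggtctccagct
Mdm2: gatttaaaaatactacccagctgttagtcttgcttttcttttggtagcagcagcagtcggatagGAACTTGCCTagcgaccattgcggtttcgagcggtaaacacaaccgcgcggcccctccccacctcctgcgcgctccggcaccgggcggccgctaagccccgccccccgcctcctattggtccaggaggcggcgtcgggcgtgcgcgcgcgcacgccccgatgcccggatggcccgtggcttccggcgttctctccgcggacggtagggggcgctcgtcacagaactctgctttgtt
Exoc4: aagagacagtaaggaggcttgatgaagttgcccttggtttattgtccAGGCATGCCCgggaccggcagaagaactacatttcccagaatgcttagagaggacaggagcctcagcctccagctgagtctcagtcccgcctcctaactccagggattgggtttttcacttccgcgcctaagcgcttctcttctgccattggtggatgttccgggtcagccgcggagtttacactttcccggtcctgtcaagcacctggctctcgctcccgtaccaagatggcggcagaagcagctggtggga
In the Cdkn1a window 2 decamers begin at -73 and -51 relative to the start, with a spacer short enough (at most 13 bases) to count as a pair. A match in these letters is a description of the window and shows no binding, and elements farther from the start were not searched.

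The consensus decamer, which reads the same on both strands, was found in the windows of 14 of the 56 risers that have one in the RefSeq table (25%). It was found in 8 of 19 risers from the p53 lists (42.1%) and in 6 of 37 other risers (16.2%). The p53 lists hold genes already known as targets, and the share among their members that did not rise was not counted. The first of these shares therefore cannot be tied to the rise. Of all 10620 tested genes with a window 8.31% held it, and of all 32851 RefSeq windows, tested or not, 8.36% did. A pair occurred in the window of 1 riser, Cdkn1a, and in 6 tested genes in all (0.0565%). For 25 of the 81 risers the table holds no window.

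Of 21 tested genes in the list of p53 apoptosis and death receptors, 4 rose and 0 fell. Eda2r (ENSMUSG00000034457, chrX:97333840-97377216), a receptor of the tumour necrosis factor family that binds ectodysplasin A2, stood at 196, 166, 187 and 243 normalized counts in Ncoa5+/- mice 1 to 4, against 10.2, 6.31, 1.87 and 7.74 in wild-type mice 1 to 4. All 4 Ncoa5+/- livers lay close together and far above wild type, a rise of 29.3-fold (log2 4.87 ± 0.46, adjusted p = 5.69e-05). Tnfrsf10b (chr14:69767472-69784411), the mouse receptor for the death ligand TRAIL, stood at 242, 156, 119.7 and 208 in Ncoa5+/- mice 1 to 4, against 27.6, 18.9, 6.55 and 12 in wild-type mice 1 to 4 (11.4-fold, log2 3.52 ± 0.44, adjusted p = 0.000365). Aen, a nuclease of apoptosis, rose 2.79-fold (adjusted p = 0.000211). Bax (chr7:45461697-45466898), which permeabilises the mitochondrial outer membrane, stood at 1072, 1096, 856 and 964 in Ncoa5+/- mice 1 to 4, against 421, 514, 577 and 486 in wild-type mice 1 to 4, a 2.0-fold rise (adjusted p = 0.00417). Without the libraries low in Zhx2, Eda2r, Tnfrsf10b and Aen passed and Bax did not (log2 0.87, adjusted p = 0.189). By DESeq2 Fas and Apaf1 also rose. Well-known members that did not pass by limma, chosen after their values were seen, were the death receptor Fas (log2 0.49 ± 0.14, adjusted p = 0.15), Perp (log2 -0.25 ± 0.14) and Bbc3, which encodes PUMA. Bbc3 stood at 3174, 927, 593 and 291 normalized counts in Ncoa5+/- mice 1 to 4, against 1127, 1131, 1124 and 884 in wild-type mice 1 to 4. Mouse 1 was thus above and mice 3 and 4 below all wild-type mice.

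In the list of p53 repair genes and nucleotide supply, 3 of 13 tested rose. Ddias (chr7:92857525-92874247), an inhibitor of apoptosis after DNA damage, stood at 273, 168, 107 and 78.9 normalized counts in Ncoa5+/- mice 1 to 4, against 39.9, 13.7, 7.49 and 18.9 in wild-type mice 1 to 4. It rose 7.92-fold (log2 2.99 ± 0.43, adjusted p = 0.00159), with no overlap but a wide span among the Ncoa5+/- mice, and was the only 1 of the 3 that passed without the libraries low in Zhx2. Polk, a DNA polymerase that copies past lesions, rose 2.39-fold, and Mgmt, which removes alkyl groups from guanine, 2.18-fold (adjusted p = 0.00252 and 0.00269).

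Among p53 targets of metabolism, secretion and other functions, 4 of 21 rose. Gdf15 (ENSMUSG00000038508, chr8:70629393-70632456), a circulating stress hormone that lowers appetite, stood at 2043, 1544, 1745 and 905 normalized counts in Ncoa5+/- mice 1 to 4, against 143, 342, 351 and 156 in wild-type mice 1 to 4. The Ncoa5+/- livers were all higher, by 6.54-fold in the fit (log2 2.71 ± 0.42, adjusted p = 0.00714). Ddit4l (chr3:137621612-137628333), an inhibitor of mTORC1, stood at 385, 143, 119.7 and 126 in Ncoa5+/- mice 1 to 4, against 12.3, 10.5, 14 and 9.46 in wild-type mice 1 to 4 (13.7-fold, log2 3.78 ± 0.42, adjusted p = 0.000184). Mice 2 to 4 lay close together and mouse 1 well above them. Ephx1, the microsomal epoxide hydrolase, is an abundant liver enzyme and still rose 2.02-fold, to 24324 ± 6106 normalized counts in Ncoa5+/- livers, against 11865 ± 2099 in wild-type livers (SD, n = 4 each, adjusted p = 0.0143). In the fit without the libraries low in Zhx2, Ddit4l passed, while Gdf15 (log2 2.81, adjusted p = 0.119), Ephx1 (0.89, adjusted p = 0.227) and Tap1 did not.

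Over the p53 lists together, 22 of 94 tested members (23.4%) rose and 0 fell, beside 0.533% of all genes tested, and the median log2 difference was 0.27 beside -0.01 over all genes. The count was 19 to 22 when 1 mouse was left out and 9 without the 4 libraries low in Zhx2, a fit of 2 mice against 2, in which the median of the 22 was 1.63 beside 1.68 in all mice. Trp53 stood at 600.3 ± 41.4 normalized counts in Ncoa5+/- and 605 ± 16 in wild-type livers (SD, n = 4 each, log2 -0.01 ± 0.09, exact permutation p = 0.8), so its mRNA did not differ beyond the spread. In the list of p53 family members and regulators, 0 of 16 passed by limma, DESeq2 or edgeR, with 3 at an unadjusted p below 0.05, and the smallest p belonged to Ppp1r13l, an inhibitor of p53 (log2 0.36 ± 0.15, adjusted p = 0.393), and Rchy1, a ubiquitin ligase for p53 (log2 0.24 ± 0.11, adjusted p = 0.421). Of 45 tested genes of DNA damage sensing and repair, 0 passed by the same 3 tools, with 2 at an unadjusted p below 0.05, Ogg1 (log2 -0.30 ± 0.14) and Parp1 (log2 -0.21 ± 0.10). The median of that list was 0.03.

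Of 15 tested genes of senescence and its secretome, 1 rose, Lif (chr11:4257557-4272514), which encodes leukaemia inhibitory factor, a cytokine. It stood at 139.7, 46.8, 21.9 and 28.2 normalized counts in Ncoa5+/- mice 1 to 4, against 1.02, 7.36, 0.936 and 0.86 in wild-type mice 1 to 4 (16.5-fold, log2 4.04 ± 0.72, adjusted p = 0.0111). Except in wild-type mouse 2 the wild-type level was about 1 read per library, and its call was lost without the libraries low in Zhx2 (log2 4.12, adjusted p = 0.101). By limma 0 of 27 cell cycle genes passed, with 5 at an unadjusted p below 0.05, by edgeR 0 and by DESeq2 1, Ccnd1, while 26 had a positive difference and the list median was 0.56. Ccnd1, cyclin D1, came nearest, at 5495, 4722, 5053 and 5246 normalized counts in Ncoa5+/- mice 1 to 4, against 1911, 1833, 1793 and 1346 in wild-type mice 1 to 4 (log2 1.59 ± 0.34, adjusted p = 0.0565). Its genotypes were far apart and did not overlap, and the adjusted p missed 0.05 by limma, while it passed in 4 of 21 fits with other settings, DESeq2 among them. Mki67, a marker of cycling cells chosen after its values were seen, stood at 224, 291, 64.5 and 128 in Ncoa5+/- mice 1 to 4, against 178, 110.4, 44.9 and 43 in wild-type mice 1 to 4, with overlap.

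Outside the p53 lists the gene with the largest rise was Gria3 (ENSMUSG00000001986, chrX:41400854-41678601), a subunit of the AMPA glutamate receptor of neurons. It stood at 524, 319, 390.4 and 424 normalized counts in Ncoa5+/- mice 1 to 4, against 24.5, 24.2, 9.36 and 8.6 in wild-type mice 1 to 4. The difference was 25.7-fold (log2 4.68 ± 0.41, adjusted p = 5.69e-05), and even the lowest Ncoa5+/- liver lay far above the highest wild-type liver. Fam212b stood at 179, 64.2, 49.97 and 90.6 in Ncoa5+/- mice 1 to 4, against 10.2, 5.26, 8.43 and 2.58 in wild-type mice 1 to 4 (12.3-fold, adjusted p = 0.000851). Mapkapk3, a stress-activated kinase, rose 5.65-fold, Mybl1, a Myb family transcription factor, 5.20-fold, and Tnfrsf23, a decoy receptor for TRAIL, 4.18-fold (adjusted p = 0.00364, 0.0143 and 0.0431). Snhg15, a long noncoding host of a small nucleolar RNA, rose 4.32-fold, and Hist1h1e, a linker histone, 3.67-fold (adjusted p = 0.00159 and 0.0142). For Hist1h1e 25.7% of exon bases are shared with Hist1h2be, which also rose (1.90-fold, adjusted p = 0.0364), so the pair may count some of the same reads. Of these, Gria3 and Tnfrsf23 passed without the libraries low in Zhx2, while Fam212b, Mapkapk3, Mybl1, Snhg15, Hist1h1e and Hist1h2be did not. Of the 85 called genes 22 share exon bases with another annotated gene, and 10 share at least 10% of them, Bax (12.2%) and Icam1 (11.7%) included.

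A pair of Ly6 genes, which encode small proteins anchored to the cell surface, was among the named risers. Ly6e (chr15:74955051-74959905) is the most abundant of them and stood at 33908, 28324, 28205 and 30346 normalized counts in Ncoa5+/- mice 1 to 4, against 11189, 10881, 5790.2 and 6090.3 in wild-type mice 1 to 4. The Ncoa5+/- livers were tightly grouped and 3.72-fold higher (log2 1.90 ± 0.21, adjusted p = 0.000184). Ly6a, known as the stem cell antigen Sca-1, stood at 74.3, 379.8, 181 and 171 in Ncoa5+/- mice 1 to 4, against 36.8, 32.6, 63.7 and 41.3 in wild-type mice 1 to 4 (4.01-fold, adjusted p = 0.0329), with mouse 1 only just above wild type. Ly6e passed without the libraries low in Zhx2 and in every fit without 1 mouse, while Ly6a did not pass without those libraries (adjusted p = 0.0813) and lost its call in 6 of the 8 fits without 1 mouse. Ly6d, a member of the list of fetal liver and tumour markers, stood at 1070.0, 369.6, 72.9 and 494 in Ncoa5+/- mice 1 to 4, against 27.6, 30.5, 20.6 and 17.2 in wild-type mice 1 to 4, and did not pass by limma (log2 3.83 ± 0.93, adjusted p = 0.104). By DESeq2 it rose (adjusted p = 4.25e-05).

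Several further risers were named after their values were seen, because they passed in all 8 fits that leave out a mouse. Ces2e, an abundant carboxylesterase, stood at 20088, 11381, 14175 and 11170.2 normalized counts in Ncoa5+/- mice 1 to 4, against 5144, 4513, 4217 and 4465 in wild-type mice 1 to 4 (3.02-fold, adjusted p = 0.00033). Exoc4, a subunit of the exocyst and the one riser in no p53 list whose promoter is printed above, rose 2.49-fold (adjusted p = 0.00159). Atp8b5, a lipid-transporting ATPase, rose 3.48-fold, Map3k20, a kinase activated by ribosome stalling, 2.21-fold, and Aaas, a nuclear pore protein, 2.02-fold (adjusted p = 0.000561, 0.000184 and 0.00506). The transcripts 1700007K13Rik and 1700061I17Rik rose 22.1-fold and 9.72-fold (adjusted p = 0.000728 and 0.000106). Of these 7, Ces2e, Map3k20 and 1700061I17Rik passed without the libraries low in Zhx2.

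A pair of noncoding risers, also named after their values were seen, lies beside known p53-regulated loci. Trp53cor1 (chr17:29057430-29079179), known as lincRNA-p21 and located next to Cdkn1a, stood at 50.7, 19.3, 23.9 and 12.7 normalized counts in Ncoa5+/- mice 1 to 4, against 4.09, 3.15, 0 and 1.72 in wild-type mice 1 to 4 (log2 3.15 ± 0.66, adjusted p = 0.0364). Its call was lost in 5 of the 8 fits that leave out a mouse and without the libraries low in Zhx2. On the opposite strand 44.1% of its exon bases overlap another annotated gene, and reads there could come from either. Gm37795 (chr4:150068539-150070997) stood at 68.7, 86.6, 62.5 and 108 in Ncoa5+/- mice 1 to 4, against 4.09, 7.36, 5.62 and 4.3 in wild-type mice 1 to 4 (12.97-fold, adjusted p = 0.000211). Its first 17 bases are the last of the hairpin of microRNA 34a, on the same strand, a microRNA known to be raised by p53. The mature sequence of miR-34a-5p from RefSeq (GRCm38.p6, chr4:150068473-150068494, plus strand) is shown for that neighbourhood, with the seed, bases 2 to 8, in capitals. Mature microRNAs are not captured by these libraries, so its level was not measured.
mmu-miR-34a-5p: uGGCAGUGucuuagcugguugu

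Hcn3, the ion channel gene of the series title, stood at 674, 1117, 890.1 and 498 normalized counts in Ncoa5+/- mice 1 to 4, against 439.8, 262, 271 and 423 in wild-type mice 1 to 4 (log2 1.16 ± 0.23, adjusted p = 0.0312, exact permutation p = 0.0286, the smallest that 70 arrangements allow). Its call was lost in 5 of the 8 fits that leave out a mouse. Pklr, which shares 17.1% of the exon bases of Hcn3 on the opposite strand, stood at 7172 ± 1988 in Ncoa5+/- and 6622 ± 1597 in wild-type livers (SD, n = 4 each).

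Immune genes made up the second group of risers: of 108 tested members of immune lists, 6 (5.56%) rose and 0 fell, beside 0.533% that rose of all genes tested. Their median log2 difference was 0.54, beside -0.01 over all genes. In bulk liver a rise of such genes can come from more cells of a type or from more RNA per cell, which cannot be told apart here. Of 18 tested genes of MHC class I presentation, which shows peptides to CD8 T cells, 3 rose, and 12 were higher in every Ncoa5+/- liver than in any wild-type liver, which held for 3.23% of all genes. Tap1 (chr17:34187553-34197225), the peptide transporter of this pathway and also a p53 target, stood at 1459.7, 1362, 1247 and 1517 normalized counts in Ncoa5+/- mice 1 to 4, against 818, 746, 755 and 633 in wild-type mice 1 to 4 (1.89-fold, adjusted p = 0.00251). H2-Q7 and H2-T23, nonclassical class I genes, rose 1.90-fold and 1.61-fold (adjusted p = 0.0364 and 0.04), but class I genes are near-identical copies among which reads can be shared. H2-Q4, not called, had a log2 difference of 0.63 ± 0.14 (adjusted p = 0.0514). The list median was 0.50. Without the libraries low in Zhx2 none of the 3 passed, with H2-T23 at 0.36 (adjusted p = 0.516), H2-Q7 at 1.19 (adjusted p = 0.138) and Tap1 at 0.91 (adjusted p = 0.113) on the log2 scale. H2-Q7 and H2-T23 lost the call in 6 of the 8 fits without 1 mouse, and by DESeq2 9 of the 18 rose.

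None of the 10 tested MHC class II genes passed by limma or edgeR and 6 rose by DESeq2, with a median of 1.02. At an unadjusted p below 0.05 were 9, beside 10.2% of all genes, and 8 were higher without overlap, beside 3.23%. H2-Aa, a class II chain, stood at 741, 738, 964 and 1024 normalized counts in Ncoa5+/- mice 1 to 4, against 473, 537, 529 and 197 in wild-type mice 1 to 4 (adjusted p = 0.0942). H2-DMa, which loads peptides on class II, had a log2 difference of 1.19 ± 0.29 (adjusted p = 0.0873). Wild-type mouse 4 was lowest for both genes. Among chemokines 1 of 15 rose, Cxcl9, a ligand that draws activated T cells, at 445, 439.9, 579.9 and 859 in Ncoa5+/- mice 1 to 4, against 281, 237, 148 and 129 in wild-type mice 1 to 4 (2.95-fold, adjusted p = 0.0139). Its receptor Cxcr3, named after its values were seen, rose 3.36-fold (adjusted p = 0.0229). Of 19 genes of NF-kB subunits, feedback and adhesion 2 rose, Relb, a subunit of the noncanonical pathway (1.90-fold, adjusted p = 0.0267), and Icam1, an adhesion molecule for leukocytes (1.58-fold, adjusted p = 0.0267). Icam1 lost the call in 7 and Relb in 5 of the 8 fits that leave out a mouse, and neither passed without the libraries low in Zhx2, while Cxcl9 did. Cxcr3 lost the call in 7 of the 8 fits without 1 mouse.

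None of 29 type I interferon response genes passed by limma or edgeR, and 3 rose by DESeq2, Oas1a, Irf7 and Bst2 (median 0.61, with 17 at an unadjusted p below 0.05). Irf7, the inducer of the type I response, had a log2 difference of 1.04 ± 0.25 (adjusted p = 0.0867). The immune count depended on single mice: 1 to 10 members rose when 1 was left out, with 1 call without wild-type mouse 3, 2 without wild-type mouse 1 or 4 or Ncoa5+/- mouse 4, 3 without Ncoa5+/- mouse 1 and 10 without wild-type mouse 2.

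Of 16 tested markers of T and NK cells, 4 rose, beside 0.533% of all genes. These 16 markers summed to 364 to 563 normalized counts in Ncoa5+/- livers, against 105 to 259 in wild-type livers. Some reached the limit of 10 only through the Ncoa5+/- livers. Among the 4 that rose these were Cd8a, Cd8b1 and Tbx21, with means of 59.2, 21.1 and 25.9 in Ncoa5+/- livers. Their wild-type means were 6.25, 2.05 and 6.65, so the count and the sums are partly shaped by that limit. The NK cell markers Ncr1, Klrb1c, Eomes and Klrd1 lay below it and were not tested, so the list says little about NK cells. Of all 22 markers in the list, 0 were at 0 in all 8 libraries. Cd8a (chr6:71373427-71379173), a chain of the CD8 coreceptor, stood at 24.8, 84.5, 60.4 and 67.2 normalized counts in Ncoa5+/- mice 1 to 4, against 6.14, 10.5, 7.49 and 0.86 in wild-type mice 1 to 4 (9.18-fold, adjusted p = 0.00506). Cd8b1, the other chain, stood at 19.1, 24.4, 15.6 and 25.3 in Ncoa5+/- mice 1 to 4, against 3.07, 4.21, 0.936 and 0 in wild-type mice 1 to 4 (8.60-fold, adjusted p = 0.0049). For both genes the Ncoa5+/- livers were all above wild type, at low counts. Nkg7, a granule protein of cytotoxic cells, rose 3.13-fold, and Tbx21, the transcription factor T-bet, 3.63-fold (adjusted p = 0.0111 and 0.04). Tbx21 lost the call in 7 of the 8 fits that leave out a mouse (highest adjusted p = 0.147), Nkg7 in 1 and the CD8 chains in 0, and of the 4 the CD8 chains passed without the libraries low in Zhx2. Cd4, chosen after its values were seen, stood at 39.4, 27.5, 46.8 and 47.7 in Ncoa5+/- mice 1 to 4, against 44, 27.3, 21.5 and 17.2 in wild-type mice 1 to 4, with overlap.

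Of the other cell types, 17 of 17 tested markers of Kupffer cells and macrophages had a positive difference and 0 passed by limma, DESeq2 or edgeR, with 10 at an unadjusted p below 0.05. These 17 markers summed to 15188 to 26800 normalized counts in Ncoa5+/- livers, against 7406 to 16373 in wild-type livers, an overlapping range. Clec4f, the defining Kupffer cell lectin, stood at 3083, 3721, 5688 and 4145 in Ncoa5+/- mice 1 to 4, against 3308, 3271, 3092 and 1364 in wild-type mice 1 to 4. In wild-type mouse 4 it was below the other 7 mice, and in that mouse the list means of MHC class II, T and NK cell and Kupffer cell markers were -0.90, -0.75 and -0.84 relative to the wild-type mean on the log2 scale. The 9 tested cholangiocyte and progenitor markers summed to 1681 to 2099 normalized counts in Ncoa5+/- livers and 999 to 1369 in wild-type livers. All 9 were positive, with 3 at an unadjusted p below 0.05, 0 passing by limma or edgeR and 1, Spp1, rising by DESeq2. The most abundant of them was Spp1, osteopontin, at 1218, 1191, 841 and 1258 in Ncoa5+/- mice 1 to 4, against 444, 686, 577 and 479 in wild-type mice 1 to 4 (adjusted p = 0.0522). Spp1 passed in 6 of 21 fits with other settings, 2 of them without 1 mouse. The part of these cell types in the rise of immune genes was not tested.

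The 9 tested B cell and plasma cell markers summed to 12649 to 19889 normalized counts in Ncoa5+/- livers and 13466 to 21137 in wild-type livers. Most of that sum was Sdc1, with a mean of 16300 over the 8 libraries, beside 600 for Ighm, the next highest. The sum therefore says little about the other B cell markers. Sinusoidal endothelial markers summed to 6634 to 10513 in Ncoa5+/- livers and 5863 to 12339 in wild-type livers. Neither list held a called gene by limma, DESeq2 or edgeR, with 0 at an unadjusted p below 0.05 in both. Of 17 stellate cell and matrix genes 0 passed by limma or edgeR, with 3 at an unadjusted p below 0.05, and 1 rose by DESeq2, Col1a1. By limma Col1a1 had a log2 difference of 1.07 ± 0.29 (adjusted p = 0.14). The 13 hepatocyte markers, which include albumin, summed to 2903836 to 3745690 normalized counts in Ncoa5+/- and 2945965 to 4182915 in wild-type livers. These sums lie far above those of the other cell types given here, and their share of all RNA was not estimated. Of the 13, 0 passed by the 3 tools, with 2 at an unadjusted p below 0.05. Of pancreas acinar markers, which would show tissue carried over at dissection, Cela1 and Amy2a5 were tested and neither passed (Amy2a5 at 77.7, 4.07, 0 and 140.2 in Ncoa5+/- mice 1 to 4, against 8.18, 31.5, 0 and 0 in wild-type mice 1 to 4).

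**Figure D2:**
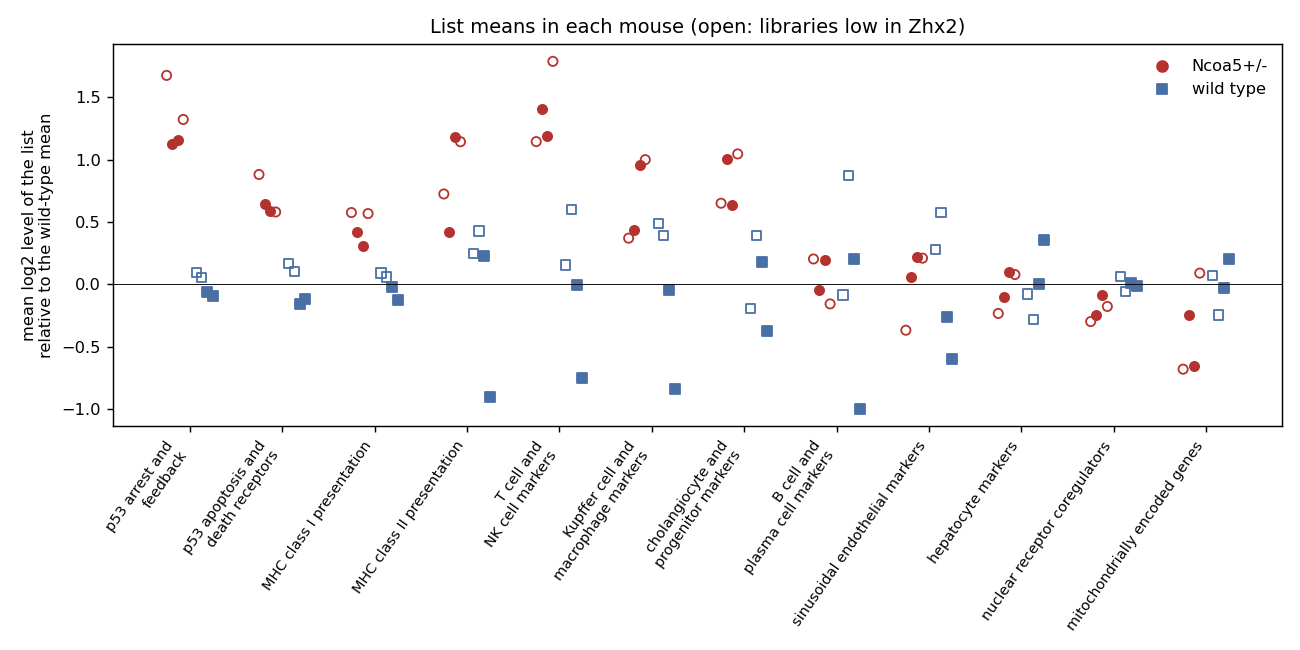
Mean log2 level of the tested members of 12 gene lists in each mouse, relative to the wild-type mean, with Ncoa5+/- livers (red circles) left of wild-type livers (blue squares) and open symbols for the 4 libraries low in Zhx2. The p53 arrest list lies at 1.13 to 1.67 in Ncoa5+/- mice and -0.09 to 0.10 in wild-type mice, while B cell, endothelial and hepatocyte lists overlap and wild-type mouse 4 is low in the immune cell lists.

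By limma 4 genes fell, 3 of them named by the rule, against 81 that rose, while DESeq2 called 48 that fell and 206 that rose, and limma with Zhx2 class as a term 12 and 106. Hnf4aos (ENSMUSG00000046840, chr2:163493807-163541720), an antisense transcript of the hepatocyte regulator Hnf4a, stood at 73.2, 33.6, 51 and 39.9 normalized counts in Ncoa5+/- mice 1 to 4, against 114, 109, 149 and 140.2 in wild-type mice 1 to 4. It was lower in every Ncoa5+/- liver, at 0.38 times wild type (log2 -1.40 ± 0.23, adjusted p = 0.0042), and passed in all 8 fits that leave out a mouse. Hnf4a on the other strand had a log2 difference of -0.28 ± 0.17 (adjusted p = 0.644), and no strand marking is stated for these libraries. Steap2 (chr5:5664829-5694578), a metalloreductase for iron and copper, stood at 20.3, 19.3, 39.6 and 24.3 in Ncoa5+/- mice 1 to 4, against 64.4, 59.9, 86.1 and 133 in wild-type mice 1 to 4 (log2 -1.68 ± 0.36, adjusted p = 0.0439). Esrrg (chr1:187608791-188214885), an orphan nuclear receptor of oxidative metabolism, stood at 50.7, 54, 77 and 63.3 in Ncoa5+/- mice 1 to 4, against 137, 90.4, 209 and 157 in wild-type mice 1 to 4 (log2 -1.22 ± 0.26, adjusted p = 0.0444). Neither overlaps between genotypes, and each lost its call in 6 of the 8 fits without 1 mouse and without the libraries low in Zhx2, where Hnf4aos passed. The last of the 4 was Zfp862-ps, a pseudogene (log2 -0.57 ± 0.11, adjusted p = 0.0267), named because it completes the count.

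Lists of the liver's own functions held 2 calls among 375 tested members by limma, beside 0.559% called of all genes tested. Of the 375, 0 rose and 2 (Steap2 and Esrrg) fell, and edgeR gave the same counts. At an unadjusted p below 0.05 by limma were 44, beside 10.2% of all genes. By DESeq2 4 rose, Gstp1, Afp, Ly6d and Rps27l, and 3 fell, Steap2, Esrrg and Cyp7b1. By limma the median log2 difference was -0.08. Among nuclear receptor coregulators, the family to which Ncoa5 belongs, 16 of 17 differences were negative and 0 passed by any of the 3 tools, with 4 at an unadjusted p below 0.05 and a median of -0.23. Ncoa6 stood at 449, 428, 422 and 440.2 normalized counts in Ncoa5+/- mice 1 to 4, against 574, 507, 517 and 520.4 in wild-type mice 1 to 4, and Med1, a Mediator subunit that binds nuclear receptors, had a log2 difference of -0.26 ± 0.09 (adjusted p = 0.244 and 0.291). The Ncoa6 values lie lower in all 4 Ncoa5+/- livers, by a margin that the test across genes did not pass. Cholesterol synthesis and uptake had 21 of 23 negative differences, 3 at an unadjusted p below 0.05 and 0 calls by the 3 tools, with Srebf2, the regulator of the pathway, at log2 -0.31 ± 0.11 (adjusted p = 0.329).

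In bile acid synthesis and transport 0 of 20 passed by limma or edgeR, with 5 at an unadjusted p below 0.05, and 1, Cyp7b1, fell by DESeq2 (adjusted p = 0.00449). Cyp7b1, of the alternative pathway of bile acid synthesis, stood at 582, 826, 745 and 589 normalized counts in Ncoa5+/- mice 1 to 4, against 2241, 1182, 1083 and 1684 in wild-type mice 1 to 4 (log2 -1.13 ± 0.30, adjusted p = 0.139). Its genotypes did not overlap although limma missed the call. Slc10a1, the bile acid importer of hepatocytes, had a log2 difference of -0.39 ± 0.13 (adjusted p = 0.266). For mitochondrially encoded genes 14 of 15 differences were negative, with a median of -0.39, 7 at an unadjusted p below 0.05 and 0 calls by the 3 tools, and CYTB stood at 70918, 124663, 66629.7 and 168013 in Ncoa5+/- mice 1 to 4, against 194941, 135178, 154837 and 197314 in wild-type mice 1 to 4. Mice 1 and 3, the Ncoa5+/- mice with the lowest mitochondrial share, were the lowest, and mouse 4 lay among the wild-type values. Lists of fatty acid oxidation (24 tested), lipogenesis (22), gluconeogenesis and insulin signalling (19), xenobiotic P450 enzymes (25), complement and coagulation (31), the acute phase response (21) and the core clock (15) held 0 calls each by the 3 tools, with 2, 1, 1, 4, 3, 2 and 0 members at an unadjusted p below 0.05 in that order. Major urinary proteins, whose level in liver follows growth hormone, gave 0 calls of 9 and 0 at an unadjusted p below 0.05. Their list mean varied widely, at -0.71, 1.43, 0.21 and -2.70 in Ncoa5+/- mice 1 to 4 relative to the wild-type mean on the log2 scale. In wild-type mice 1 to 4 it was -2.80, -2.14, 1.66 and 3.28. In both genotypes the libraries low in Zhx2 were the lowest, and a link to Zhx2 was not tested.

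Stress lists outside p53 gave 1 call among 56 tested genes by limma, beside 0.559% of all genes tested. By edgeR there was also 1 call and by DESeq2 there were 2, which added Egr1, an immediate early gene. Nfe2l2 (chr2:75675513-75704641), which encodes the antioxidant regulator NRF2, stood at 2099, 1614, 2069.6 and 1899 normalized counts in Ncoa5+/- mice 1 to 4, against 1339.8, 1265, 1283 and 1229 in wild-type mice 1 to 4 (1.49-fold, adjusted p = 0.0176). The groups were apart by a modest margin. Nfe2l2 lost the call in 4 of the 8 fits without 1 mouse and without the libraries low in Zhx2 (adjusted p = 0.235), and none of the other 18 NRF2 and antioxidant genes tested passed by the 3 tools. Gstp1, a glutathione transferase, had a log2 difference of 0.84 ± 0.26 (adjusted p = 0.213). None of 21 genes of the integrated stress, unfolded protein and heat shock responses passed by the 3 tools, with 1 at an unadjusted p below 0.05, where Atf3, an early stress factor, had a log2 difference of 1.26 ± 0.42 and Psat1, of serine synthesis, 0.81 ± 0.40 (adjusted p = 0.253 and 0.514). Afp, the fetal albumin of the list of fetal liver and tumour markers, stood at 567, 190.4, 172 and 1501 in Ncoa5+/- mice 1 to 4, against 100.2, 91.5, 168 and 124 in wild-type mice 1 to 4 (adjusted p = 0.181). By DESeq2 Afp rose (adjusted p = 0.00254). It was highest in Ncoa5+/- mice 4 and 1, which are low in Zhx2, but not in the wild-type mice low in Zhx2.

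**Figure D3:**
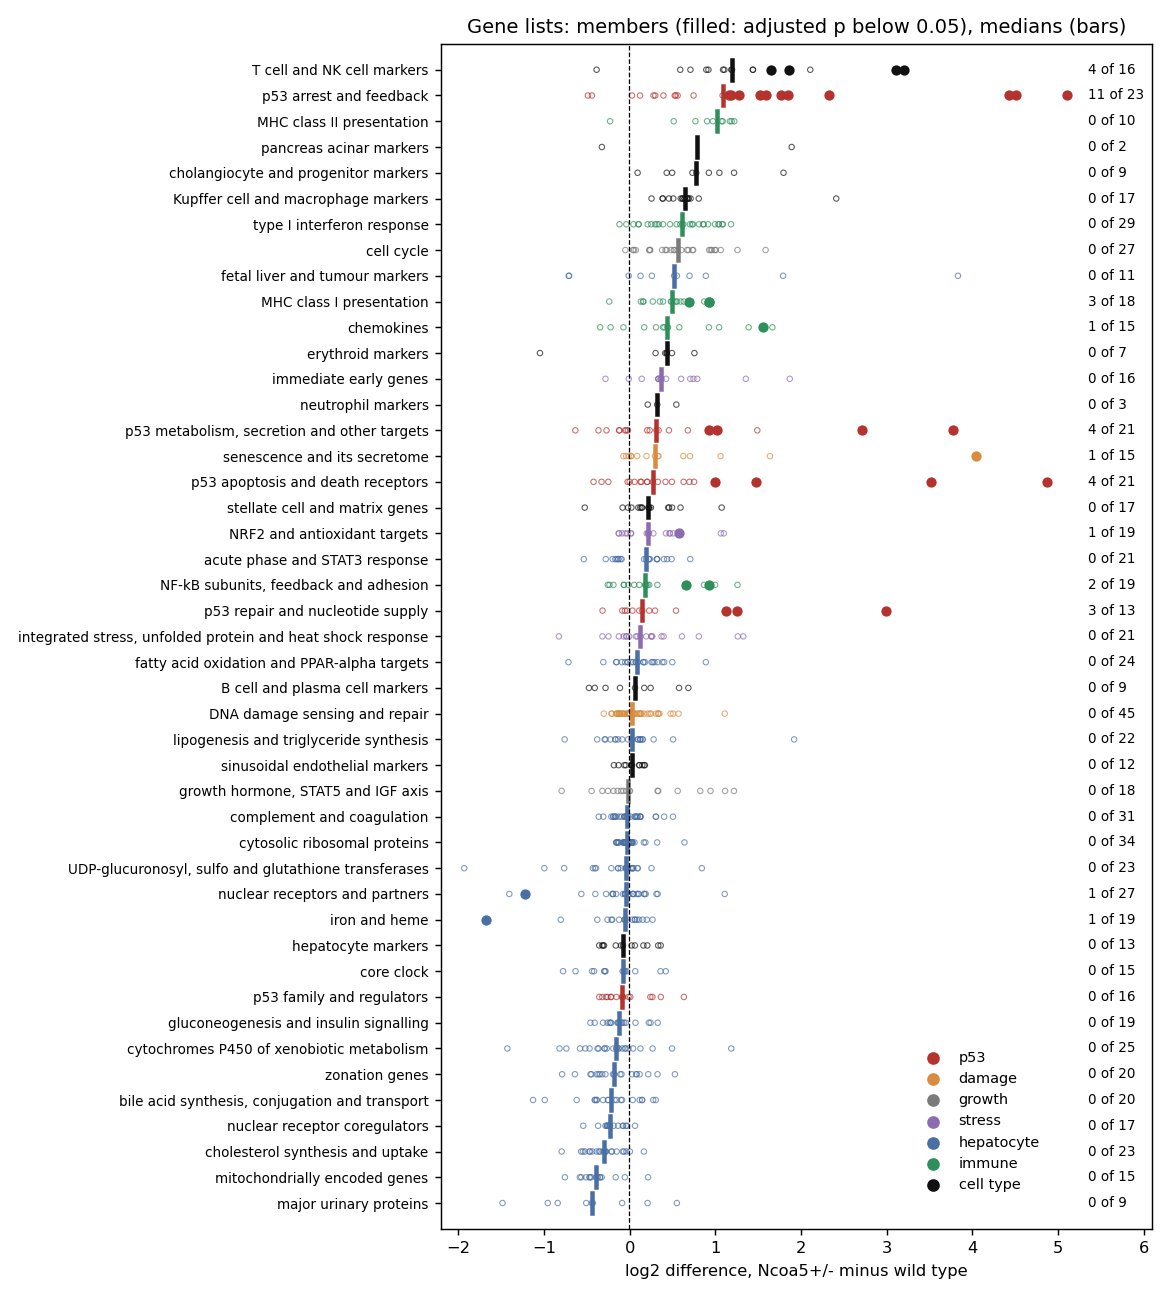
Log2 difference of every tested member of the gene lists reported here, Ncoa5+/- minus wild type, with 1 point per gene and 1 row per list. Bars mark list medians and filled points mark genes with an adjusted p below 0.05. The number called of the number tested is at the right. Lists are ordered by their median, and filled points lie far to the right in the p53, T and NK cell and senescence rows.

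The same deletion could be read in a second set of mice, Ncoa5+/-Tip30+/- against Ncoa5+/+Tip30+/-, 4 of each. There 470 genes passed (3.09%), 246 higher (1.62%) and 224 lower (1.47%) in Ncoa5+/-Tip30+/- livers. DESeq2 called 1112 and limma with the range of the mouse tag as a term 1339, in a set where the ranges are unevenly shared between the genotypes. All 81 risers had a positive difference there, where 47.8% of all genes tested did, and 66 of them passed, which is 81.5% of the 81 and 26.8% of the 246. The median log2 difference of the 81 was 1.36 in the second set and 1.56 in the first, in which they were selected. Both comparisons come from 1 fit with 1 estimate of the spread per gene, so each gene has the same SE in both. The number of risers that passed is therefore not independent of their selection, while the differences themselves come from separate libraries. All 22 risers of the p53 lists passed in the second set, with medians of 1.61 there and 1.68 in the first. Cdkn1a averaged 2449 ± 1787 normalized counts in Ncoa5+/-Tip30+/- and 59.5 ± 11.7 in Ncoa5+/+Tip30+/- livers (SD, n = 4 each, log2 5.07, adjusted p = 3.24e-05). Phlda3 averaged 2479 ± 1523 and Gria3 513 ± 268 in Ncoa5+/-Tip30+/- livers, against 45.5 ± 8.7 and 13.3 ± 6.29 in Ncoa5+/+Tip30+/- livers (adjusted p = 3.24e-05 and 5.94e-06). These levels lie close to those in the first set of mice.

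Of the 10 risers in immune lists or among T cell markers, 7 passed in the second set, with medians of 0.79 there and 1.24 in the first. Those that did not were Cxcl9 (log2 0.85, adjusted p = 0.0912), Tbx21 (0.53, adjusted p = 0.445) and H2-T23 (0.17, adjusted p = 0.514). Cd8a had a log2 difference of 3.10 there (adjusted p = 0.00529). Of the other risers 38 of 50 passed, and Hcn3 (0.63, adjusted p = 0.125), Nupr1 (1.64, adjusted p = 0.111) and Hist1h1e (1.14, adjusted p = 0.0726) were among the 12 that did not. The 4 fallers all passed, with Hnf4aos at -0.92 (adjusted p = 0.0389), and they are 1.79% of the 224. Tested directly as an interaction, the difference between both sets passed for 0 of 15207 genes by limma, with 641 (4.22%) at an unadjusted p below 0.05, for 1 gene by DESeq2 and for 0 by edgeR. Among the 81 risers the lowest adjusted p of the interaction was 0.954. Of the 7 with an unadjusted p below 0.05, 2 were higher in the second set, Gm37795 (log2 5.4 there and 3.70 in the first) and Bax (log2 1.52 there and 1.0 in the first), and 5 were lower there, Slc41a3, H2-T23, Tbx21, Hist1h2be and Sulf2.

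**Figure D4:**
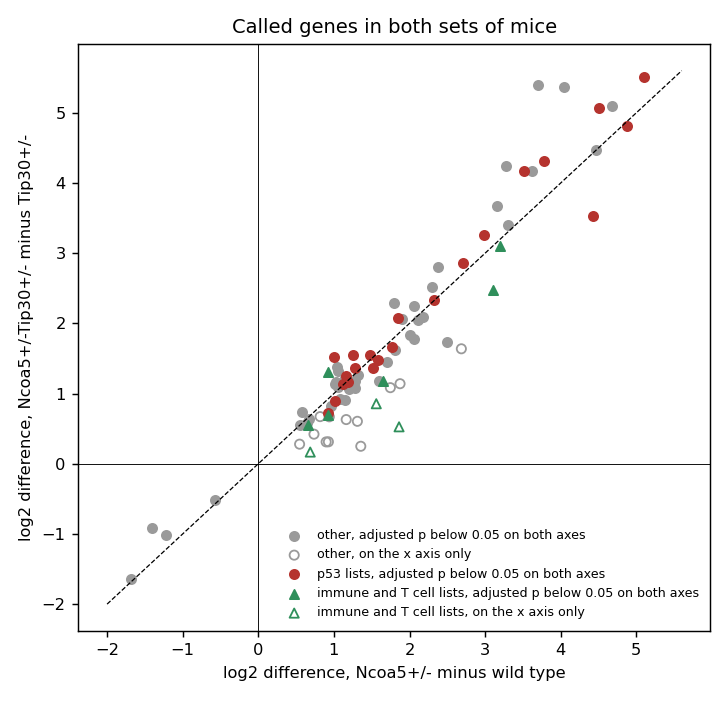
Log2 differences of the 85 called genes in the first set of mice (x axis, Ncoa5+/- minus wild type) and in the second (y axis, Ncoa5+/-Tip30+/- minus Ncoa5+/+Tip30+/-), with the dashed line where both are equal. Red p53 genes are filled throughout, since 22 of 22 passed in the second set, and green triangles for immune and T cell lists lie on or below the line except 1.

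The mice carry tags that fall into a lower and an upper range, with 2 Ncoa5+/- and 2 wild-type mice in each. In the second set 2 Ncoa5+/-Tip30+/- mice fall in each range, but 3 of the Ncoa5+/+Tip30+/- mice in the lower and 1 in the upper. The labels do not say what a tag stands for. The median log2 difference of the 81 risers was 1.45 within the lower and 1.54 within the upper range, and for the 22 p53 risers it was 1.67 and 1.64. For the 10 immune and T cell risers it was 0.88 in the lower and 1.46 in the upper range. Without the libraries low in Zhx2 these medians were 1.58, 1.63 and 1.51, and 22 of the 81 still passed.

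Around the Ncoa5 gene on chromosome 2, 348 genes within 20 Mb on either side were tested, of which 1 rose, Sulf2, and 1 fell, Hnf4aos. They are 0.575% of those tested, beside 0.559% of all genes, and both lie within 5 Mb, where they are 2.38% of 84 tested. Sulf2, an extracellular sulfatase of heparan sulfate, stood at 2252, 1579, 1967 and 1795 normalized counts in Ncoa5+/- mice 1 to 4, against 1196, 897, 700.3 and 1386 in wild-type mice 1 to 4 (log2 0.90 ± 0.19, adjusted p = 0.0356). It lost the call in 5 of the 8 fits that leave out a mouse and was not called in the second set (log2 0.31, adjusted p = 0.326). The remaining risers were spread over the genome, with at most 8 on any chromosome (8 on chromosome 7 and 7 each on chromosomes 2 and 4).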

How the data were processed

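The authors deposited 1 table of DESeq2-normalized signal values, per the labels, in which the reads of each of 30199 genes are scaled by a size factor for each of 16 libraries. Per the submitters' processing notes, Trimmomatic 0.36, STAR 2.6.0c, DESeq2 1.28.1 and the genome build GRCm38 were used. What counted the reads, on which annotation release, and from which strain is not stated in the sources used here, nor is any strand marking. Dividing each library by its smallest non-zero step gave whole numbers for 100% of values (tolerance 1e-04), and these recovered reads were used for DESeq2 and edgeR. Symbols came from the table for 18821 genes and from an identifier list for 11328, and 50 kept their identifier. Positions are from GENCODE M21, and promoter and microRNA sequences from RefSeq.

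The main test was limma 3.58.1 (trend and robust, R 4.3.3) on log2 of the value plus 1, as 1 model of 4 group means over 16 libraries with 12 residual degrees of freedom, 2-sided, with Benjamini-Hochberg adjustment over 15207 genes. An adjusted p without another tool's name is from this fit, errors are SE unless SD is named, and a fold is 2 raised to the fitted log2 difference, which understates changes of low genes. The interaction is the difference in the second set of mice minus that in the first. DESeq2 1.42.0 and edgeR 4.0.16 (quasi-likelihood) on the recovered reads called 206 and 76 risers and 48 and 5 fallers. Pseudocounts, filters, scalings, covariates, single mice left out and the 4 libraries low in Zhx2 left out were tried as alternatives. No 2 of the 8 libraries were copies: the most similar pair differed by a chi-square of 20.2 per gene. The chain was tested on simulated data with known changes. Sampling depth is that of the read totals given in the report, and p-values measure the spread between mice, 1 library each.

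Genes were named by a rule: of called genes that do not overlap and average 50 or more in the genotype where they are higher, the 20 largest rises and 10 largest falls without predicted genes; up to 4 called members of each list, or else 2 of smallest p as values; the 6 uncalled genes of smallest p; and Ncoa5, Htatip2, Hcn3, Pklr, Trp53 and Zhx2. The gene groups, the 46 lists with 919 members and the named genes were chosen with earlier results of these data known, so counts over lists are descriptions and no list was tested. The result of 1 list and of single genes is not reported here.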

Additional observations from a re-analysis of the deposited data

Results flagged for a closer look

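In each group of 4 mice the highest and lowest value of each of the 116 named genes was compared with the rest of the group on the log2 scale, 232 groups in all, and 10 held a mouse that stood apart (chance alone marks about 1 in 20 groups). Phlda3 in Ncoa5+/- mouse 1 was at 4371 normalized counts, against 1744 to 1820 in the other Ncoa5+/- mice. Ddit4l in the same mouse was at 385 normalized counts, against 119.7 to 143 in the others. Spp1 in Ncoa5+/- mouse 3 was at 841, against 1191 to 1258. Wild-type mouse 4 was low in both flagged MHC class II genes, with H2-Aa at 197, against 473 to 537, and H2-DMa at 31.0, against 88.3 to 98.2. Lif in wild-type mouse 2 was at 7.36, against 0.860 to 1.02, and Relb in the same mouse at 67.3, against 43.1 to 46.4. In wild-type mouse 1, Cldn7, a tight junction gene of the cholangiocyte list, was at 2.05, against 10.3 to 12.2, and Cyp2c55, a cytochrome P450, at 60.3, against 27.1 to 30.5. Dusp6, a phosphatase induced by ERK signalling, was at 1490.4 in wild-type mouse 3, against 894 to 954 in the other wild-type mice.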

How the results depend on the processing

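Of the values of named genes under the alternatives, 2232 kept their direction and their side of the threshold, 124 lost the call, 50 gained one and 13 changed sign, none of them called. The number of risers, 81, was 206 by DESeq2, 55 in a fit of the 2 groups alone and 57 with a filter at 50. It was 27 without the 4 libraries low in Zhx2 and 44 to 81 when 1 mouse was left out. The number of fallers, 4, was 48 by DESeq2, 12 with Zhx2 class as a term, 2 with a filter at 50, 1 in a fit of the 2 groups alone and 1 to 6 without 1 mouse. Calls in the second set of mice, 470, were 1112 by DESeq2 and 1339 with the mouse tag range as a term. The interaction gave 1 call by DESeq2. The p53 members called, 22, were 9 without the libraries low in Zhx2 and 19 to 22 without 1 mouse. The immune members called, 6, were 27 by DESeq2, 16 with Zhx2 class as a term, 2 without the libraries low in Zhx2, 2 in the 2 groups alone and 1 to 10 without 1 mouse. The cell type markers called, 4, were 7 by DESeq2, 2 in the 2 groups alone, 0 with a filter at 50, which keeps fewer genes, and 2 to 7 without 1 mouse. For fits with fewer mice the smaller sample is part of the change, and for the others the cause was not tested.

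The log2 difference of Ncoa5 ran from -0.21 to -0.10 without 1 mouse. Without the libraries low in Zhx2 the sign turned for Lect2 (-0.13), Stab2 (0.11) and Trp53 (0.072), and with upper-quartile scaling for Trp53 (0.021). Without 1 mouse the log2 difference crossed 0 for Trp53 (-0.057 to 0.017), Pklr (-0.029 to 0.29), Mup21 (-0.016 to 0.34), Zhx2 (-1.45 to 0.093) and Clec4g (-0.013 to 0.30). Under each scaling the median of all genes stayed within 0.03 of 0 on the log2 scale. No paired analysis was possible because the labels give no replicate numbers shared between groups and do not say that neighbouring mouse tags mark litters. With the range of the tag as a term, which groups mice without pairing them, 93 genes rose and 5 fell. Low genes are limited by depth: 13 of the risers had a wild-type mean under 10 normalized counts.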
